A study of Mus musculus with 2 samples.

Results

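The kinesin, dynein and dynactin genes encode the motor proteins that carry cargo along microtubules. They were taken here as every gene with a protein-coding transcript whose symbol names a kinesin (Kif), a kinesin light chain (Klc), a cytoplasmic dynein chain (Dync or Dynl) or a dynactin subunit (Dctn). The rule, which used symbols and not measured values, found 70 genes among 21901 genes with a protein-coding transcript and 55536 gene rows in all. Of the 70, 42 are kinesin family genes, 2 encode kinesin partners (Kifap3 and Kif1bp), 4 are light chain genes of kinesin-1, 16 are dynein chain genes and 6 are dynactin genes. They were measured by total RNA sequencing in left cerebral cortex from 2 male mice of the strain B6CASTF1/J, aged 2 months and sourced from The Jackson Laboratory. This strain is the first-generation hybrid of C57BL/6J and CAST/EiJ, so every autosomal gene has a copy from each parent strain, while the reference genome is that of C57BL/6J. Per the labels, 300 ng of RNA entered each library, with ERCC synthetic RNAs added as spike-ins. There is 1 group with 1 library per animal (replicate 1 and replicate 2) and no treatment or genotype contrast. The labels number the males separately but give both the same donor record.

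Levels are given as TPM, a level per transcript length scaled to a fixed library total, so they can be compared between genes. The gene table, made from an alignment to the transcriptome, is the source of a level unless the other quantification is named. The other quantification assigned reads of the same libraries to the same annotated transcripts, so a match between them is no independent support. An SD is over the 2 animals.

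The libraries held 33007629 and 32142918 expected counts. Where a gene had 0 counts, a level of up to 0.0909 and 0.0933 CPM (counts scaled to the library total), worth 3 counts, remains possible from counting error alone. All 5 excitatory neuron markers were detected in both libraries, with a summed level of 2599 and 2686 TPM, and all 5 astrocyte markers with 337 and 321 TPM. Of 7 markers of dividing cells, 0 reached 1 TPM in both libraries. Striatal neuron markers were lower in replicate 2 (264 and 144 TPM over 7 genes), as were markers of mature oligodendrocytes (814 and 659 TPM over 7 genes). Choroid plexus markers were higher in replicate 2 (13.04 and 95.6 TPM over 6 genes), of which Ttr made 8.58 and 89.2 TPM.

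Kinesins walk along microtubules on ATP, most of them toward the plus end, which in axons points away from the cell body. Cytoplasmic dynein walks toward the minus end and needs dynactin and an adaptor protein for long runs. In a cortical neuron, kinesin-1, kinesin-2 and kinesin-3 carry vesicles, mitochondria and RNA granules outward, and dynein with dynactin brings endosomes and signalling cargo back. Other kinesins build the mitotic spindle in dividing cells or serve the cilium.

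Detected genes, at 1 TPM or more in both libraries, numbered 54 of 70 (77.1%), against 58.9% of all genes with a protein-coding transcript. A mean of at least 10 TPM was reached by 39 of them, 15 lay between 1 and 10 TPM, and 16 were under 1 TPM. The median level over the 70 genes was 13.7 TPM, beside 3.84 TPM over all genes with a protein-coding transcript. Together they summed to 4373 and 4282 TPM, and the 5 highest, Kif5a, Klc1, Kif1a, Dynll1 and Dynll2, made up 39.5% of that sum. By class, kinesin family genes summed to 1903 ± 10.3 TPM, dynein chains to 1248 ± 29.0, kinesin light chains to 503 ± 0.120, dynactin to 500.4 ± 19.4 and the kinesin partners to 174 ± 5.87. A list of 11 kinesins found in neuronal processes (Kif5a, Kif5b, Kif5c, Kif1a, Kif1b, Kif3a, Kif3b, Kif3c, Kif17, Kif21a and Kif21b) gave 1591 ± 8.44 TPM of the kinesin sum. Bulk tissue mixes cell types, and fewer cells of a type cannot be told apart from less RNA per cell. Among the 39 genes at 10 TPM or more, put in order of level, 24 of 38 neighbouring pairs had libraries that did not overlap and 14 pairs overlapped. The order was separated without overlap from Kif5a to Klc1, Kif1a and Dynll1, while Dynll1 and Dynll2 overlapped.

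**Figure D1:**
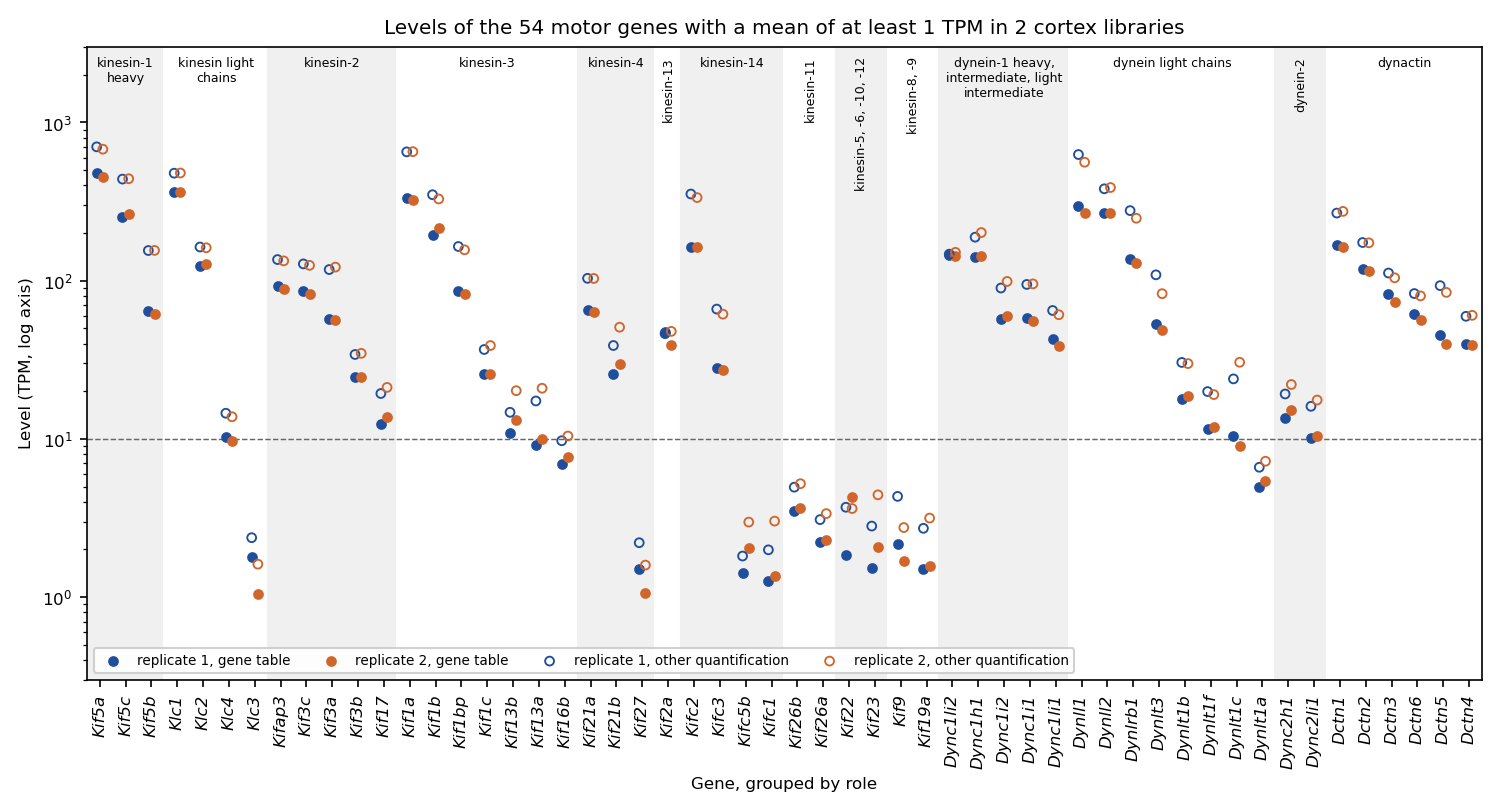
Level in TPM (log axis) of the 54 genes with a mean of at least 1 TPM, grouped by role. Filled points are the gene table and open points the other quantification, blue for replicate 1 and orange for replicate 2; the dashed line marks 10 TPM. Kif5a is highest in the gene table at 477 and 452 TPM, and Kif22, Kif23, Kif9, Kif19a, Kif26a and Kif26b lie under 10 TPM.

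Kinesin-1 heavy chains, the motor subunits of conventional kinesin, had the highest summed level among the kinesin subfamilies, at 786 ± 13.0 TPM over 3 genes. Kif5a (chr10:127225696-127263348, minus strand, build mm10), known as a neuronal heavy chain, was at 477 and 452 TPM, and 70 genes with a protein-coding transcript stood above it. Kif5c (chr2:49619298-49774778), also known as neuronal, was at 254 and 263 TPM. Kif5b, the heavy chain found in most cell types, was at 64.4 and 62.0 TPM. All 3 levels were separated in both libraries. Within a library Kif5a exceeded Kif5b 7.35 ± 0.0723-fold and Kif5c 1.80 ± 0.111-fold, and Kif5c exceeded Kif5b 4.09 ± 0.211-fold. The other quantification kept the order with smaller ratios to Kif5b, 4.44 ± 0.112 for Kif5a and 2.83 ± 0.00729 for Kif5c. Nearly all of Kif5a came from a single form, Kif5a-201, with 99.4% and 99.1% of its TPM.

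The light chains of kinesin-1, which bind cargo and hold the motor inactive until cargo is bound, were dominated by a pair of genes. Klc1 (chr12:111758849-111807844) was at 366 and 363 TPM, the next highest level after Kif5a among the 70 genes, and Klc2 (chr19:5107746-5118560) was at 125 and 128 TPM. The Klc1 to Klc2 ratio was 2.88 ± 0.0730, and 2.95 ± 0.0294 in the other quantification. Klc4 followed at 10.2 and 9.69 TPM, and Klc3 stood last at 1.80 and 1.04 TPM from 62 and 39 counts. Summed over their genes, light chains reached 503 TPM beside 786 TPM for the heavy chains.

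Klc1 also showed short alternative exons whose use can be read from its forms. An alternative exon here is a stretch of exonic bases that some forms hold and others lack. It can be a whole exon or an end of a longer exon. The share of an exon is given here as the TPM of the forms that include it, over the TPM of all forms that span its position and either include or skip it whole. Forms annotated as protein-coding or as targets of nonsense-mediated decay were counted. Such a share rests on how reads were assigned to whole forms and not on counts of reads across the exon's junctions. A 27-base exon at chr12:111789460-111789486, part of the coding sequence, was included in 32.9% and 33.3% of Klc1, and in 47.9% and 48.6% in the other quantification. A 24-base exon just before it, at chr12:111789325-111789348, was included in 92.6% and 93.0%, and in 93.4% of both libraries in the other quantification. Klc1-201 holds the 24 bases and Klc1-204 lacks them, yet both forms have 16 exons. The 24 bases therefore need not be an exon of their own. The pair is shown because nearby stretches of the gene differ in use while the mice gave close values for each. In these and all sequences that follow, read 5′ to 3′ from the GENCODE M21 transcript, capitals mark the alternative exon and lower case the 15 spliced bases on each side.
Klc1, 24-base exon: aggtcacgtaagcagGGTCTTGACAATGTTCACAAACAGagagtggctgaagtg
Klc1, 27-base exon: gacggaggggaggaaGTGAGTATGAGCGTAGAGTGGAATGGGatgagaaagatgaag

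Kinesin-2 motors consist of Kif3a paired with Kif3b or Kif3c, joined by the accessory protein Kifap3, and of Kif17, which works without them. All 5 genes were above 10 TPM. Kifap3 was highest, at 92.0 and 88.1 TPM, and Kif3c, a pairing partner known from neurons, was at 86.3 and 83.0 TPM. Kif3a was at 57.4 and 56.3 TPM and Kif3b at 24.8 and 24.6 TPM. Kif3a, the shared partner, was therefore under the sum of Kif3b and Kif3c in each library. The ratio of Kif3c to Kif3a was 1.49 ± 0.0216 and that of Kif3a to Kif3b 2.30 ± 0.0195. In the other quantification Kif3c and Kif3a were nearly level (ratio 1.06 ± 0.0430) and Kif3a exceeded Kif3b 3.48 ± 0.0470-fold. Kif17, a dendritic and ciliary kinesin, stood at 12.5 and 13.7 TPM.

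Forms of Kif3a carried alternative exons that kept their majority in both mice and both quantifications. A 9-base exon at chr11:53590717-53590725 was included in 80.6% and 81.6%, and in 83.2% ± 1.13 in the other quantification. A 72-base exon upstream, at chr11:53588689-53588760, was included in 18.8% and 14.1%, and in 21.4% ± 2.51. Both keep the reading frame by length and lie in coding sequence. They are shown as the shortest alternative exon of the kinesin-2 genes and an optional block upstream of it.
Kif3a, 72-base exon: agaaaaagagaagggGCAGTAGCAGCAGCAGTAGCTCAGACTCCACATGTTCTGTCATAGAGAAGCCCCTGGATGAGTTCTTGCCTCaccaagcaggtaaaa
Kif3a, 9-base exon: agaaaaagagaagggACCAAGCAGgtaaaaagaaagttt

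Kinesin-3 motors, fast carriers of synaptic vesicle precursors and dense core vesicles, summed to 673 ± 5.02 TPM over 9 genes, Kif1bp included. Kif1a (chr1:93015464-93101951), the carrier of synaptic vesicle precursors in axons, was at 335 and 323 TPM. Kif1b (chr4:149176319-149307693), which carries mitochondria and synaptic vesicle precursors in different forms, was at 195 and 215 TPM. The 2 genes were apart in both libraries, by a ratio of 1.61 ± 0.154, and by 1.93 ± 0.0882 in the other quantification. Kif1c was at 25.6 and 25.7 TPM and Kif13b at 10.9 and 13.2 TPM. Kif13a and Kif16b, which serve endosomes, lay between 6.99 and 10.02 TPM. Kif14, a kinesin of cell division, was at 0.10 TPM in both libraries, and Kif28 at 0.11 and 0.02 TPM from about 5 counts and 1 count. Kif1bp, which encodes a protein that binds Kif1 and other kinesins and is no motor itself, was at 86.2 and 81.9 TPM.

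Kif1a forms differed in a 24-base exon at chr1:93026832-93026855 and a 27-base exon at chr1:93065552-93065578, both on the minus strand. The 24-base exon, held by the leading form Kif1a-204, was included in 77.0% and 77.9%, and in 69.0% ± 1.07 in the other quantification. The 27-base exon, held by Kif1a-201 and Kif1a-210, was included in 20.0% and 18.5%, and in 26.9% ± 1.66. Each exon had the same majority in both mice and both quantifications. They are printed because Kif1a was the most abundant kinesin-3 gene.
Kif1a, 24-base exon: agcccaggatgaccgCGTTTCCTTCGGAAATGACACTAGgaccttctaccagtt
Kif1a, 27-base exon: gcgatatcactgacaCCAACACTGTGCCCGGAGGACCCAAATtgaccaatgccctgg

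Kinesin-4 genes split into a pair of neuronal members and a low remainder. Kif21a, a kinesin that curbs microtubule growth, was at 65.6 and 63.5 TPM, and Kif21b, known from dendrites, was at 25.6 and 29.7 TPM, a ratio of 2.35 ± 0.304. Kif27 was at 1.5 and 1.06 TPM, Kif7, which organises the tip of the cilium, at 0.77 and 0.73 TPM, and Kif4, a chromosome-bound kinesin, at 0.51 and 0.40 TPM. Kif21a had 6 alternative segments, and its 21-base exon at chr15:90964975-90964995 (minus strand) was included in 84.2% and 84.1%. In the other quantification that share was 52.5% and 55.8%, so the majority held while the size did not. A 39-base exon at chr15:90949006-90949044 changed its majority, from 36.5% and 37.3% to 69.2% and 71.1% in the other quantification. The 21-base exon is printed as an example of an exon on which the mice agreed and the quantifications did not.
Kif21a, 21-base exon: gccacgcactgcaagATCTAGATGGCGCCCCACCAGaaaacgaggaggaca

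Kinesin-13 motors shorten microtubules at their ends, and Kif2a, the member known from neurons, was the only gene of the 4 in this family above 1 TPM in the gene table. It was at 47.1 and 39.2 TPM. Kif24, a ciliary member, was at 0.56 and 0.82 TPM, Kif2c, which acts at centromeres, at 0.35 and 0.04 TPM from 6 and 2 counts, and Kif2b had 0 counts in both libraries. In the other quantification Kif24 was at 19.3 and 19.5 TPM and Kif2c at 3.32 and 2.64 TPM. The 114-base exon of Kif2a at chr13:106969704-106969817 (minus strand) was included in 50.8% and 50.9% of its spanning forms, and in 59.0% ± 0.139 in the other quantification. It is shown because the gene divided almost evenly between including and skipping it.
Kif2a, 114-base exon: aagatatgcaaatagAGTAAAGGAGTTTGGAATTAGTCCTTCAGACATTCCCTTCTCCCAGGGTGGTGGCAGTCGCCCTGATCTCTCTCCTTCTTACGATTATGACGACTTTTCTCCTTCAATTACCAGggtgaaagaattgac

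Kinesin-14 motors walk toward the minus end, unlike other kinesins. Kifc2 (chr15:76659858-76668196), the neuronal member, was at 163 TPM in both libraries and ranked among the 10 highest of the 70 genes. Kifc3 was at 28.1 and 27.2 TPM. Kifc1, the spindle member, and its near copy Kifc5b lay between 1.26 and 2.05 TPM. The leading form of Kifc1 shares 58.8% of its 31-base words with Kifc5b, and the deposited posterior SD reached 8.52% of the Kifc1 count, so the division of reads between these genes is uncertain. Exons of Kif2a overlap those of Dimt1 on the opposite strand over 19.2% of its exonic bases. Whether counting used strand is not given in the sources used here, so reads there cannot be told apart between these genes.

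Kinesins of cell division were low. Of 12 mitotic kinesins (Kif11, Kif14, Kif15, Kif18a, Kif18b, Kif20a, Kif20b, Kif22, Kif23, Kif2c, Kif4 and Kifc1) 3 were detected, namely Kif22, Kif23 and Kifc1, whose reads are shared with Kifc5b. Over all genes with a protein-coding transcript 58.9% were detected. The 12 summed to 7.83 and 10.1 TPM from 267 and 283 counts, and to 6.89 and 6.92 TPM without transcripts shorter than 300 bases. In the other quantification they summed to 16.8 and 18.3 TPM. Kif15 (1.17 and 1.10 TPM) and Kif2c (3.32 and 2.64 TPM) also reached 1 TPM there. Kif22, which binds chromosome arms, was at 1.85 and 4.28 TPM from 16 and 31 counts, with a leading form of 295 bases. Kif23, a cytokinesis motor, was at 1.52 and 2.06 TPM from 42 and 46 counts. Kif11, which pushes spindle poles apart, was at 0.41 and 0.35 TPM. Kif15, another spindle kinesin, was at 0.45 and 0.56 TPM, and Kif20b at 0.49 and 0.42 TPM. Kif20a, a cytokinesis motor, was at 0.51 and 0.10 TPM from 18 and 8 counts, and Kif12, which is outside that list, had 0 counts in both libraries. Of the kinesin-8 family, Kif18a was at 0.38 and 0.40 TPM, Kif18b at 0 and 0.03 TPM from 0 and 2 counts, and Kif19a, which limits cilium length, at 1.51 and 1.58 TPM. The kinesin-9 genes Kif9 and Kif6, both linked to motile cilia, were at 2.18 and 1.70 TPM and at 0.76 and 0.92 TPM. Kif26b and Kif26a, kinesin-11 proteins that lack ATPase activity, were at 3.49 and 3.66 TPM and at 2.24 and 2.31 TPM.

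Cytoplasmic dynein 1 is built on the heavy chain Dync1h1, which contains the motor, with intermediate and light intermediate chains that bind cargo adaptors and dynactin. Its 5 genes summed to 443 ± 2.60 TPM. Dync1h1 (chr12:110601452-110666945) was at 141 and 143 TPM, from 39005 and 40155 counts over a leading form of 14342 bases. The light intermediate chain gene Dync1li2 was at 145 and 144 TPM and Dync1li1 at 43.0 and 38.7 TPM, a ratio of 0.283 ± 0.0203 for Dync1li1 over Dync1li2. That ratio rested in part on Dync1li2-208, an annotated transcript of 144 bases that took 33.6% and 33.4% of the gene's TPM from 47.6 and 46.3 counts. Without transcripts shorter than 300 bases, an alternative chosen after the data were seen, the ratio was 0.426 ± 0.0314, and in the other quantification, where that transcript was at 0, it was 0.422 ± 0.0261. The intermediate chain genes Dync1i1, known as neuronal, and Dync1i2, found in most cells, were level, at 58.5 and 55.3 TPM and at 57.6 and 59.9 TPM. Their libraries overlapped, with a ratio of 0.969 ± 0.0655, and 1.01 ± 0.0626 in the other quantification.

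The intermediate chain genes have a similar alternative exon. Each has a 60-base exon, at chr6:5784439-5784498 in Dync1i1 and chr2:71233649-71233708 in Dync1i2 (plus strand), identical at 46 of 60 bases (76.7%). The share of forms including it was 91.4% and 80.9% in Dync1i1 and 83.6% and 88.0% in Dync1i2, so the ranges of the 2 genes overlapped. The other quantification gave 87.5% ± 2.05 and 78.4% ± 5.81. Each gene also has a shorter exon further upstream. The 33-base exon of Dync1i1 (chr6:5769701-5769733) was included in 75.8% and 78.3%, and in 56.2% ± 0.259 in the other quantification. The 18-base exon of Dync1i2 (chr2:71227827-71227844) was included in 62.7% and 58.1%, but in 31.8% ± 2.32 in the other quantification, so the majority form changed. The 60-base exons are shown for their likeness, and the shorter ones because their shares differed between quantifications; no likeness was computed for the shorter ones.
Dync1i1, 60-base exon: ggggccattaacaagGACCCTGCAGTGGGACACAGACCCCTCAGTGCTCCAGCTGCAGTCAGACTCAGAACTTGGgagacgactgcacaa
Dync1i2, 60-base exon: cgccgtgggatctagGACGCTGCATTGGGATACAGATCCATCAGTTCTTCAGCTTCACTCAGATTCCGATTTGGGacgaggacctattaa
Dync1i1, 33-base exon: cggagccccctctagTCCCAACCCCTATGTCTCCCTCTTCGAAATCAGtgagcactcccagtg
Dync1i2, 18-base exon: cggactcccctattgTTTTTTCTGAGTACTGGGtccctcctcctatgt

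In Dync1li2 a 42-base exon at chr8:104423586-104423627 (minus strand) was included in 77.5% and 77.1%, and in 78.0% ± 0.366 in the other quantification. It is printed as the dynein exon whose share varied least over the libraries and quantifications.
Dync1li2, 42-base exon: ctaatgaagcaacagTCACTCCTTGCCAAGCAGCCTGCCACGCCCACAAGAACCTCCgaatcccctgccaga

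Dynein light chains come in 3 families. Dynll1 and Dynll2, small dimeric proteins that also bind many partners outside dynein, were at 297 and 269 TPM and at 266 and 269 TPM. Their libraries overlapped, with a ratio of 1.06 ± 0.0835, while the other quantification placed Dynll1 higher at 1.55 ± 0.142. Dynlrb1, of the roadblock family, was at 138 and 130 TPM, and its relative Dynlrb2, known from motile cilia, at 0.55 and 0.56 TPM from 5 counts in each library. Dynlt3, of the Tctex family, was at 53.3 and 48.5 TPM. The 4 Dynlt1 genes, which lie close together on chromosome 17, summed to 44.8 TPM in both libraries. In the other quantification they summed to 80.9 and 86.7 TPM. Dynlt1b was at 17.8 and 18.6 TPM, Dynlt1f at 11.6 and 11.8 TPM, Dynlt1c at 10.5 and 8.98 TPM and Dynlt1a at 4.93 and 5.38 TPM. How reads divide among the 4 is uncertain, because the leading form of Dynlt1f shares 95.8% of its 31-base words with Dynlt1c. The posterior SD was between 4.42% and 8.51% of the count in all 4. Exons of Dynlt1a overlap those of Tmem181a on the opposite strand over 13.6% of the Dynlt1a exonic bases. The sum of the 4 includes the retained-intron form Dynlt1f-202, with 75.6% of the Dynlt1f counts. The ratio of Dynlt3 to that sum was 1.14 ± 0.0761, and 1.15 ± 0.277 in the other quantification.

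Dynein 2 is the motor of retrograde transport inside cilia. Its heavy chain gene Dync2h1 was at 13.5 and 15.3 TPM and its light intermediate chain gene Dync2li1 at 10.1 and 10.4 TPM. The heavy chain of dynein 2 was lower than Dync1h1 in both libraries, without overlap. The 10 ciliary motors listed also include Kif17, Kif19a, Kif6, Kif7, Kif9, Kif24, Kif27 and Dynlrb2. They summed to 43.9 and 46.7 TPM, and to 86.5 and 91.2 TPM in the other quantification. Of the 10, 6 were detected, near the share of 58.9% over all genes with a protein-coding transcript. Markers of ependyma and motile cilia, which include Dynlrb2 itself, were detected for 2 of 8 genes and summed to 10.9 and 9.56 TPM. The detected markers were Rsph1 at 7.88 and 6.4 TPM and Foxj1 at 1.86 and 1.87 TPM, while Tmem212 was at 0 TPM in both libraries.

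Dynactin activates dynein and tethers it to microtubules. All 6 Dctn genes were above 10 TPM, and they summed to 514 and 487 TPM. Dctn1 (chr6:83165920-83200117), the large subunit that binds microtubules, was highest at 167 and 163 TPM. Dctn2 (chr10:127266368-127281950), which forms the shoulder of the complex and lies beside Kif5a on the opposite strand, was at 119 and 114.4 TPM. Dctn3, the other shoulder subunit, was at 82.2 and 73.1 TPM. The subunits at the pointed end of the complex were lower, with Dctn6 at 61.3 and 56.7 TPM, Dctn5 at 45.1 and 40.1 TPM and Dctn4 at 39.6 and 39.4 TPM. Relative to Dctn1 the levels were 0.706 ± 0.00650 for Dctn2, 0.470 ± 0.0309 for Dctn3, 0.357 ± 0.0137 for Dctn6, 0.258 ± 0.0172 for Dctn5 and 0.239 ± 0.00300 for Dctn4. In the other quantification all 5 were also under Dctn1, in the same sequence at 0.642, 0.399, 0.301, 0.328 and 0.221. Dctn5 and Dctn6 thus exchanged their order. Coding forms held only 13.3% and 16.4% of Dctn6 TPM, and 63.1% and 68.6% in the other quantification. The level and ratio of Dctn6 therefore do not stand for coding mRNA alone.

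In Dctn1 a 15-base exon at chr6:83197319-83197333 (plus strand) was included in 74.9% and 74.2%, and in 71.8% and 71.5% in the other quantification. The sequence is shown because it is the shortest dynactin exon and its use was the same within 4 points in every library and quantification.
Dctn1, 15-base exon: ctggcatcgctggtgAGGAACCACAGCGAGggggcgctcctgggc

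Most listed partners of the motors were detected with them, beside 58.9% of all genes with a protein-coding transcript. Of 20 dynein regulators and adaptors 18 were detected, with a sum of 1151 and 1120 TPM. The 5 highest were Pafah1b1 (the dynein regulator Lis1) at 193 and 178 TPM, Actr1b (a subunit of the dynactin filament) at 152 and 160 TPM, the capping protein genes Capzb at 155 and 143 TPM and Capza2 at 107 and 98.6 TPM, and Actr1a, the main filament subunit, at 88.8 and 87.2 TPM. All 18 kinesin adaptors and cargo linkers were detected, with a sum of 1961 and 1973 TPM. They were led by Clstn1, a cargo receptor that binds kinesin light chains, at 617 and 621 TPM. The scaffold genes Mapk8ip3 (169 and 172 TPM) and Mapk8ip1 (160 and 150 TPM), Kidins220 (138 and 153 TPM) and the lysosomal GTPase gene Arl8a (121 and 116 TPM) followed.

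The 2 mice were compared gene by gene as the log2 ratio of replicate 2 over replicate 1, with a 95% interval that covers counting error only. With a single animal on each side, a difference between the animals cannot be set against a spread within either, and no p-value is given. Among the 63 genes averaging 10 counts or more, 0 differed 2-fold or more, beside 1.80% of all 18490 genes tested. Levels at least 25% higher in replicate 2 were seen in 4 genes (background 11.4%), namely Kif22, Kif15, Kifc5b and Kif20b, all with fewer than 100 counts. Levels at least 20% lower were seen in 4 (background 6.66%), namely Kif20a, Klc3, Kif27 and Kif9. Restricted to averages of 100 counts or more, 0 of 48 were that much higher (background 3.17%) and 2 were lower (background 2.37%). The 2 were Kif27, with 149 and 109 counts (log2 ratio -0.41, interval -0.79 to -0.05), and Kif9, with 127 and 97 counts (log2 ratio -0.35, interval -0.75 to 0.03). The Kif9 interval included 0.

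Smaller shifts were measurable in genes with many reads. The interval lay above 0 in 7 of the 63 genes (background 11.0%) and below 0 in 13 (background 11.6%). An interval narrows with more counts, and the background was not matched for counts. Averages of 100 counts or more were held by 48 of the 63 genes, beside 12817 of the 18490 genes tested. The median ratio was -0.02 over the 63 genes and 0.00 over all genes. Above 0 were Kif1b (log2 ratio 0.09), Dync1h1 (0.07), Kif21b (0.17), Dync2h1 (0.08), Kif16b (0.19), Dynlt1f (0.25, with reads shared among the Dynlt1 genes) and Kif22 (0.90, from 16 and 31 counts). Below 0 were the kinesin-1 genes Kif5a (-0.07), Kif5c (-0.04) and Klc1 (-0.04), and the dynactin genes Dctn1 (-0.10), Dctn2 (-0.07) and Dctn3 (-0.16). The rest were Dynll1 (-0.09), Dynlt3 (-0.12), Dync1li1 (-0.15), Kifap3 (-0.06), Kif1bp (-0.10), Klc3 (-0.61, from 62 and 39 counts) and Kif27. All 6 dynactin genes had ratios below 0, with a median of -0.08, and 3 of their intervals included 0. Over all genes with a protein-coding transcript and an average of 100 counts or more, 55.3% were lower in replicate 2. Ratios moved with length, since 2219 of 3489 such genes with a leading form under 2000 bases were lower (median -0.04), against 924 of 2379 at 5000 bases or more (median 0.02). The leading form was under 2000 bases in 4 dynactin genes, and the part of length in their ratios was not tested. For Kif5c the scale mattered, because its counts fell by 0.04 on the log2 scale while its TPM was higher in replicate 2.

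Scaling by the spike-ins moved the median of all genes to 0.32 and that of the motor genes to 0.30, so the directions above hold relative to the bulk of genes and 11 of the 13 lower genes turned higher on that scale. Excitatory neuron markers had a median ratio of 0.01, astrocyte markers -0.08, mature oligodendrocyte markers -0.29 and striatal neuron markers -1.14. The part of these cell types in the motor genes' ratios was not tested. Among the partners, 0 compared genes were 25% higher or 20% lower (background 11.4% and 6.66%). Of 19 dynein regulators and adaptors 3 had an interval above 0 and 5 below it, and of 18 kinesin adaptors 1 and 5. The background was 11.0% above and 11.6% below, again not matched for counts.

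**Figure D2:**
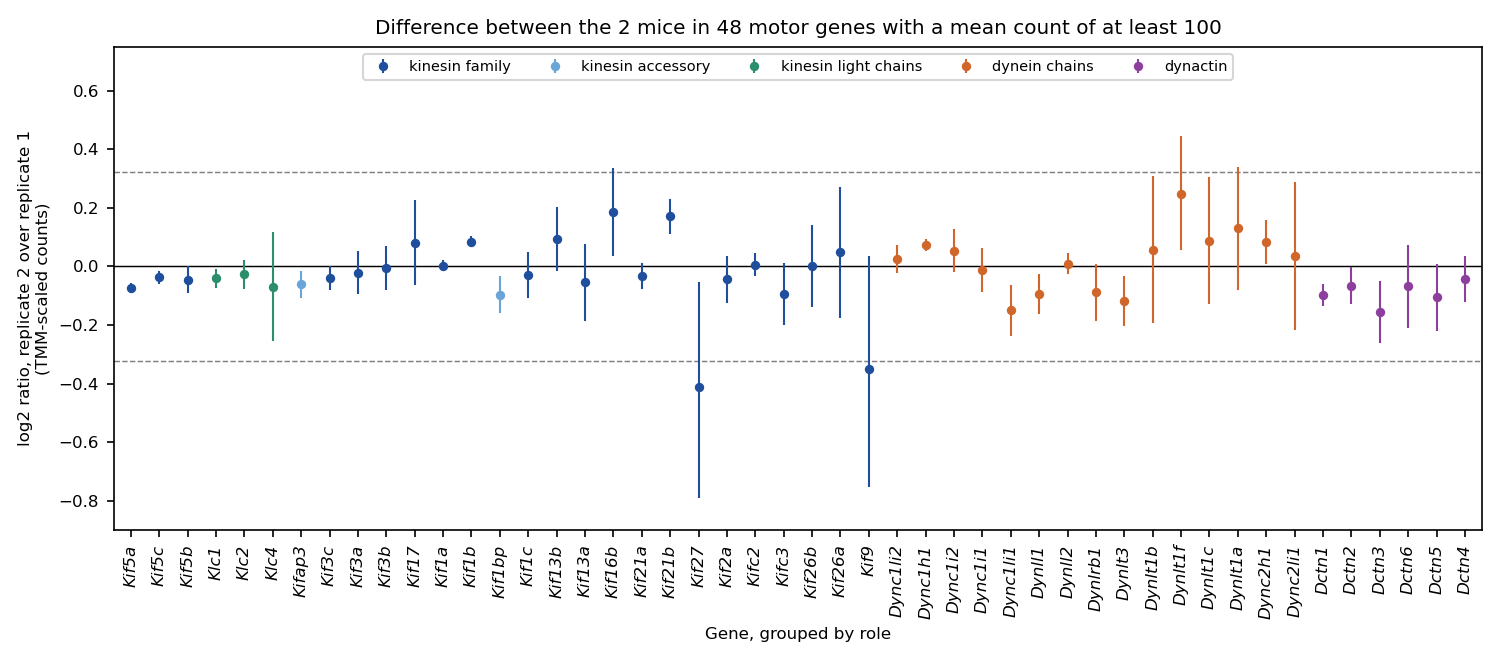
Log2 ratio of replicate 2 over replicate 1 for the 48 motor genes averaging 100 counts or more, grouped by role, with points for the ratio, bars for the 95% counting interval and dashed lines at 25% higher and 20% lower. Kif27 and Kif9 lie below the lower dashed line, and no point lies above the upper line.

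Most of the TPM of the 39 genes at 10 TPM or more sat in protein-coding forms. The median gene had 92.3% and 89.5% there, beside 89.6% and 87.9% over 8262 genes at the same level, and retained-intron forms took a median of 4.58% and 5.58%. On the scale of expected counts the median protein-coding share was 98.2% and 98.1%. Low shares were found in a few genes. Dctn6 had 13.3% and 16.4% of its TPM in coding forms and was led by the retained-intron form Dctn6-210, with 54.2% and 50.1%. In the other quantification its coding share was 63.1% and 68.6%, led by Dctn6-201. Kif21b had 20.95% and 15.7% in coding forms, all of it Kif21b-201, and its leading form Kif21b-204, annotated as a target of nonsense-mediated decay, took 59.4% and 60.9%, and 57.2% and 44.1% in the other quantification. Kif21b-204 has 36 exons over 9254 bases, and Kif21b-201 has 35 exons over 9115 bases. Their annotated reading frames are of 1639 and 1624 residues, so the low coding share of Kif21b rests on the annotated class and not on a short frame. Whether Kif21b-204 is degraded was not tested. Dynll1 had 41.4% and 42.6% in coding forms, and the noncoding form Dynll1-203 (539 bases) took 47.9% and 45.8%. Several genes with high coding shares in the first transcript table had lower ones in the other quantification. Dynlrb1 went from 97.0% and 96.6% to 53.1% and 50.6%, and Dctn5 from 82.6% and 84.3% to 49.2% and 50.3%. Kif1bp (57.4% and 55.0%), Kifc2 (57.2% and 62.95%) and Kif5b (64.9% and 65.0%) were also under 70% there in both libraries.

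Very short annotated transcripts had a large weight in TPM. Dync1li2-208 held 33.6% and 33.4% of TPM with 0.648% of the gene's counts, and Kif2a-205, of 288 bases, held 32.7% and 21.2% of TPM with 1.91% of the counts. Both were at 0 in the other quantification. Levels of Dync1li2 and Kif2a in TPM therefore depend on a small number of reads.

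**Figure D3:**
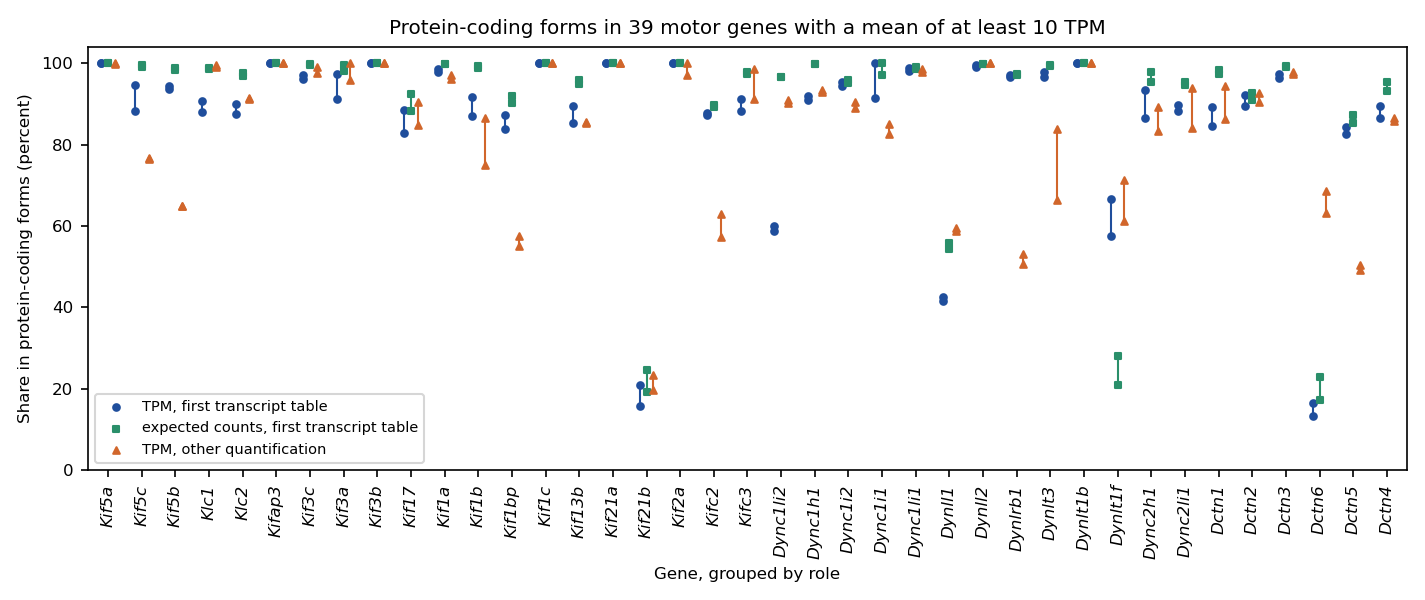
Share of each gene in protein-coding forms (percent) for the 39 genes with a mean of at least 10 TPM, with circles for TPM and squares for expected counts of the first transcript table and triangles for TPM of the other quantification; a line joins the 2 libraries. Dctn6, Kif21b, Dynll1 and Dynlt1f stand low, and Dync1li2 is low in TPM at 58.7% and 59.99% but at 96.6% and 96.7% in counts.

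The leading form was the same in both mice in 38 of 39 genes (background 92.7%), and in 38 of 39 in the other quantification (background 89.1%). The exceptions were Kif2a, led by Kif2a-205 in replicate 1 and Kif2a-201 in replicate 2, and, in the other quantification, Dync1i1, where Dync1i1-204 and Dync1i1-203 were within 1 point of each other in both libraries. Both quantifications named the same leading form in 28 of 39 genes (background 77.5%). The 11 that differed were Dctn6, Dync1i1, Dync1i2, Dync2h1, Dynll1, Dynlrb1, Kif17, Kif21a, Kif2a, Kif3c and Kifc3. Dynlrb1 was the most complete exchange, with Dynlrb1-202 at 96.3% and 95.8% in the first transcript table and at 7.31% and 3.45% in the other quantification. In Kif3c the exchange was between Kif3c-201 and Kif3c-205, both annotated with 796 residues, which had 49.5% and 45.9% in replicate 1. Kif5a-201, Kif5b-201, Kif5c-201, Kif1a-204, Kif1b-203 and Dync1h1-201 led in every library of both quantifications.

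Over the 39 motor genes, 48 alternative exon segments of 6 to 279 bases were found in 22 genes, and 39 of them are a multiple of 3 bases long. Of the 41 segments flanked by coding sequence, 36 are such a multiple. Segments of a gene can overlap or rest on the same forms, so they are not separate observations. Other genes were not searched, so these counts have no background. Between the mice 38 of the 48 moved by 5 points or less. Between the quantifications 26 stayed within 10 points, and 45 had the same majority. Of the longer sets, the 78-, 42- and 18-base exons of Kif1b were all held by Kif1b-203 alone, and were included in 92.5% and 93.9%, and in 82.8% of both libraries in the other quantification. The 6-base segment of Klc2 at chr19:5110259-5110264 had the widest gap between quantifications, at 52.9% and 50.6% against 100% in both libraries.

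**Figure D4:**
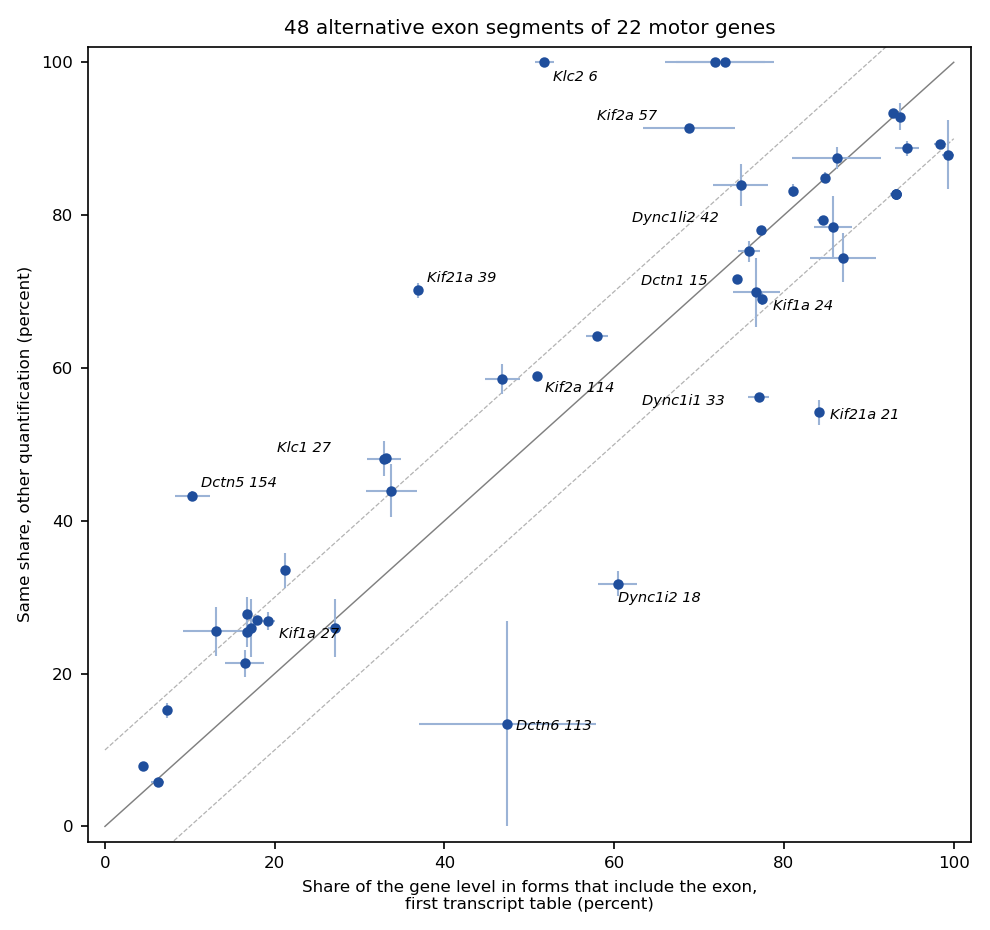
Share of the gene's level in forms that include each of 48 alternative exon segments (percent), in the first transcript table (horizontal) and the other quantification (vertical); points are means of the 2 libraries, bars their range, the solid line marks equal shares and the dashed lines a gap of 10 points. The 15-base exon of Dctn1 and the 42-base exon of Dync1li2 lie near the solid line, and the 18-base exon of Dync1i2 and the 21-base exon of Kif21a far below it.

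The other quantification gave higher TPM for all 39 genes, by a median of 1.60-fold, beside 1.56-fold over all genes at that level. Among the 39 the ratio ran from 1.03 in Dync1li2 to 2.46 in Kif5b. For Kif5b the other quantification assigned 26.2% and 28.3% to the noncoding form Kif5b-206, which had 0% in the first transcript table. Counts were close, with 7772 and 7374 counts in the gene table and 8549 and 8323 in the other. Kif24 differed most among the low genes, at 0.56 and 0.82 TPM against 19.3 and 19.5 TPM, of which the noncoding form Kif24-204 made up 95.8% and 96.3%. That form shares 41.9% of its 31-base words with other genes, mainly Abhd2. Under 1 TPM in the gene table, Kif24 is not among the 54 detected genes.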

How the data were processed

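Both libraries come from the series' total RNA sequencing of cortex. The deposited gene table and first transcript table hold expected counts, their posterior SD and TPM, per the file headers, on build mm10 with GENCODE M21. The other deposited transcript tables hold estimated counts and TPM. Which programs made them is not stated in what was available. Depth was 33007629 and 32142918 expected counts, and 33424292 and 33464140 in the other quantification. Rows that name no gene (1.78e-05% and 2.48e-05% of counts) and spike-ins (0.428% and 0.345%) entered no comparison.

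Expected counts were rounded and genes averaging under 10 counts dropped. Log2 ratios used edgeR 4.0.16 in R 4.3.3 (TMM scaling, prior of 2 counts), with Clopper-Pearson 95% intervals from the exact conditional binomial. This step was tested on simulated data. No molecular identifiers are recorded, so reads can be copies of 1 molecule, and intervals and floors cover counting error only. Exon positions and sequences came from GENCODE M21 transcripts on mm10, the build of the files. Alternative exons were sought among forms with at least 5% of a gene's TPM in either quantification.

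The text names all genes of a mean of 10 TPM or more, all genes of classes with fewer than 5 of these, those 25% higher or 20% lower at 100 counts, those whose leading form varied, and the 5 highest of each partner list. Genes under 100 counts that passed these ratios, and the exons printed, were picked after their values were seen. The motor genes and lists were chosen with earlier results of these data known. Alternatives tried were size factors from DESeq2 1.42.0, scaling on spike-ins, log2 TPM with either pseudocount (1, 0.1), a smaller prior (0.5), other count minimums (none, 100), other TPM thresholds, TPM rescaled to protein-coding genes, the other quantification, and each animal left out.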

Additional observations from a re-analysis of the deposited data

How the results depend on the processing

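Detection held within 1.5 times at thresholds of 0.5 TPM (58 genes) and 5 TPM (43), in the other quantification (59) and without either animal. Class sums moved with the scale. In the other quantification kinesin family genes summed to 3324 TPM, kinesin light chains to 657, dynein chains to 2056 and dynactin to 783. TPM rescaled to genes with a protein-coding transcript gave 3907, 1032, 2562 and 1027. Without transcripts shorter than 300 bases, a choice made after seeing the data, the first 3 were 1889, 483 and 1200. Leaving out an animal gave 1895 to 1910 for the kinesin family, 502.4 to 503 for light chains, 1228 to 1268 for dynein chains and 487 to 514 for dynactin. Of 18 ratios between genes 14 moved by more than their SD in the other quantification, and Dync1i1 over Dync1i2 went from 0.969 to 1.01, with libraries on both sides of 1 in each. Genes at least 2-fold apart between the mice numbered 1 with spike-in scaling and with a prior count of 0.5, and 2 with log2(TPM + 0.1) and with no count minimum. At least 25% higher were 26 with spike-in scaling, 2 with log2(TPM + 1) and 0 at 100 counts. At least 20% lower were 1, 2 and 2 in these settings. Apart from the minimum of 100 counts, no share over all genes is given beside these counts of genes that differed. They are therefore no result about the motor genes. With spike-in scaling the median was 0.298, beside 0.316 over all genes, and 48 intervals lay above 0 and 0 below. On that scale Kif5a turned to 0.25, Klc1 0.28, Dynll1 0.23, Kif5c 0.28, Dctn1 0.22, Dctn2 0.25, Kifap3 0.26, Kif1bp 0.22, Dctn3 0.16, Dynlt3 0.20 and Dync1li1 0.17. Kif5c also turned to 0.0488 with log2(TPM + 1) and 0.0489 with log2(TPM + 0.1). Its main form Kif5c-201 was at 238.1 TPM in replicate 1 and 230.2 TPM in replicate 2. The noncoding forms Kif5c-203 (480 bases) and Kif5c-204 (775 bases) were at 10.04 and 21.3 TPM and at 2.24 and 8.03 TPM. The part of these forms in the change of sign was not tested. No paired analysis was possible because there is 1 group. Depth limits the low genes, since the 7 genes not compared had a mean count under 10.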
